A study of Mus musculus with 18 samples.

Results

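The ovaries of 4 superovulated female mice were set against the hypothalami and the pituitary glands of the same 4 animals, and the genes with higher or lower signal in the ovary than in each of these other tissues are described here. The arrays were chosen by their labels alone: 4 ovary arrays, 4 hypothalamus arrays and 4 pituitary arrays, each from 1 mouse, out of 18 arrays in the series, of which the remaining 6 held pools of 8 mice and did not enter the fit. The animals were BABL/c littermates (strain name as labelled) of 9 weeks, assigned in 10 pairs at 6 weeks. The stressed mice had been transported by road and the control mice stayed in the laboratory. The labels give the journey as 1000 km, as nearly 10 h and as 50 km/h on average, values that conflict with each other, so its true length or speed is unknown. Within each treatment, 1 mouse was the animal with most oocytes in its oviducts (high ovulation) and 1 was the animal with fewest (low ovulation). All the mice, control mice included, were superovulated, so that no ovary of an untreated cycle is part of the comparison, and the hormones and the time of collection are not given in the labels. The signals are log2 values of Mouse Gene 2.0 ST arrays, on which 22180 genes had a transcript cluster (a set of probes for 1 transcript region) of their own. Values of 4 mice are always given in the order stressed high, stressed low, control high and control low ovulation.

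The ovary combines growing follicles, in which granulosa and theca cells surround an oocyte, with corpora lutea, the progesterone-making bodies that form from a follicle once it has released its oocyte. A surge of luteinizing hormone (LH) starts this change, and superovulation drives many follicles through it together. The hypothalamus consists mainly of neurons and glia and controls the pituitary through released peptides, and the pituitary is made largely of endocrine cells that keep peptide hormones in dense secretory granules.

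The tissue labels were checked against marker genes. All 9 ovary markers were highest in the 4 ovary arrays, all 6 measured pituitary markers in the 4 pituitary arrays and all 7 measured hypothalamus markers in the 4 hypothalamus arrays. Summed over the pituitary markers, the log2 signal was 26.8 to 28.9 in ovary, against 34.2 to 41.6 in hypothalamus and 74.7 to 76.1 in pituitary. In the hypothalamus arrays, Prl (prolactin) stood at 8.68, 6.55, 5.53 and 9.26 and Cyp11a1, a steroid enzyme, at 5.59, 4.94, 4.10 and 6.99, so that both varied there by several log2 units between mice. Their part in the tissue differences was not tested. Over all genes, ovary arrays correlated with each other at 0.980 to 0.985, with hypothalamus arrays at 0.832 to 0.844 and with pituitary arrays at 0.874 to 0.898.

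Of the 22180 genes, 3026 (13.6%) were higher in ovary than in both other tissues and 2135 (9.63%) were lower than in both, by limma's moderated test with a Benjamini-Hochberg adjusted p under 0.05 in each contrast. Against hypothalamus alone, 4950 genes were higher (22.3%) and 4349 lower (19.6%). The contrast with pituitary had 4459 higher (20.1%) and 3886 lower (17.5%). Because the contrasts share the ovary arrays, they are not independent of each other. A difference of 2 or more on the log2 scale, which is 4-fold, was reached against both tissues by 378 higher genes (1.7%) and by 360 lower genes (1.62%). All 360 of the lower genes, and 376 of the 378 higher ones, had 4 ovary arrays beyond all 8 others. Over all genes, 13.1% had every ovary above, and 9.23% every ovary below, all the other arrays. The 4-fold groups were chosen by size of difference on these same arrays, which favours such separation, so it is no separate support. A difference of 16-fold against both tissues was reached by 46 higher and 43 lower genes. The median difference over all genes was 0.032 against hypothalamus and -0.007 against pituitary, with a median standard error (SE) of 0.183 in each contrast. Since whole tissues were measured, fewer cells of a type and less RNA per cell cannot be told apart.

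**Figure D1:**
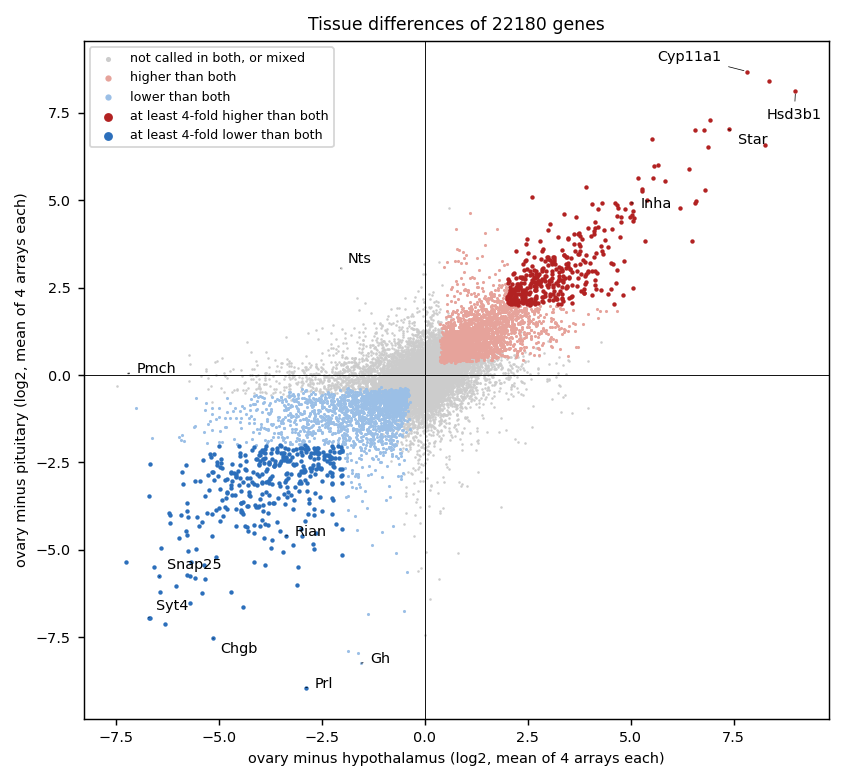
Each point is 1 of 22180 genes, placed by its mean difference between ovary and hypothalamus (horizontal axis, log2) and between ovary and pituitary (vertical axis, log2), over 4 arrays a tissue. The 378 genes at least 4-fold higher in ovary fill the upper right, led by steroid enzymes such as Hsd3b1, and the 360 at least 4-fold lower fill the lower left, where Syt4 and Snap25 lie.

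The 34 gene lists were chosen with earlier results of these data known. Their shares, here and below, are therefore descriptive and no separate support for a tissue difference. Of these lists, steroid hormone synthesis had the highest share of genes higher in ovary. Of 14 measured genes of that list, 13 were higher in ovary than in both tissues, 9 of them at least 4-fold, and none was lower. Their median difference was 3.89 against hypothalamus and 3.92 against pituitary. Hsd3b1, which makes progesterone from pregnenolone, stood at 11.96, 11.67, 11.78 and 11.73 in ovary, against 2.63, 2.18, 2.75 and 3.59 in hypothalamus and 3.69, 2.86, 3.94 and 4.10 in pituitary. The 4 ovaries lay within a narrow band far above every other array. The difference was 9.00 (SE 0.28) against hypothalamus and 8.14 against pituitary, with adjusted p-values of 2.1e-13 and 6.97e-13 by limma. The signals of the other tissues lay below every array's median (4.78 to 5.03), and whether such low signals exceed background was not tested. Differences from such signals, and a place in the 4-fold or 16-fold groups that rests on them, are therefore those of the deposited values alone. Star, the protein that carries cholesterol into mitochondria, was at 12.14, 12.32, 11.81 and 11.73 in ovary, against 4.49, 4.94, 3.64 and 5.44 in hypothalamus and 4.79, 5.27, 4.62 and 5.19 in pituitary. Cyp11a1, which cuts the cholesterol side chain in the first committed step, was at 13.23, 13.21, 13.17 and 13.35 in ovary, which was among the highest signals of the arrays, and differed by 7.83 (SE 0.47) from hypothalamus and by 8.68 from pituitary. Fdx1, its electron donor, differed by 5.02 and 4.59. The androgen-making enzyme of theca cells, Cyp17a1, was at 10.51 to 11.52 in ovary, with differences of 6.88 and 6.52. Hsd17b1, which makes estradiol from estrone in granulosa cells, varied more between mice, at 8.22, 8.85, 9.69 and 8.51 in ovary, against 5.03, 4.56, 5.06 and 5.09 in hypothalamus and 5.55, 5.36, 5.43 and 5.95 in pituitary. The only member that was not called was the estrogen sulfotransferase Sult1e1, with differences of 0.22 and 0.34.

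Of 23 measured genes of cholesterol synthesis and uptake, 20 were higher than in both tissues, 7 at least 4-fold, and none was lower, with medians of 1.44 against hypothalamus and 2.21 against pituitary. Scarb1, the receptor that takes up cholesterol esters from high-density lipoprotein, stood at 11.93, 11.90, 11.75 and 12.03 in ovary, against 7.24, 6.90, 7.19 and 7.29 in hypothalamus and 7.43, 8.04, 7.87 and 8.44 in pituitary. Every ovary was more than 3 log2 units above every other array. Among the synthetic enzymes, Fdps differed by 2.80 and 3.84, Cyp51 by 2.48 and 3.89, Lss by 2.61 and 3.12, and Dhcr7 by 2.15 and 2.43. Hmgcs1, which starts the mevalonate pathway, was at 11.91, 11.89, 11.46 and 11.62 in ovary, against 10.17, 10.62, 10.45 and 10.57 in hypothalamus and 7.52, 8.63, 8.77 and 8.52 in pituitary. Its difference from hypothalamus, 1.27, was smaller than that from pituitary, 3.36. Srebf2, the regulator of the pathway, was not called, with differences of 0.06 and 1.43.

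**Figure D2:**
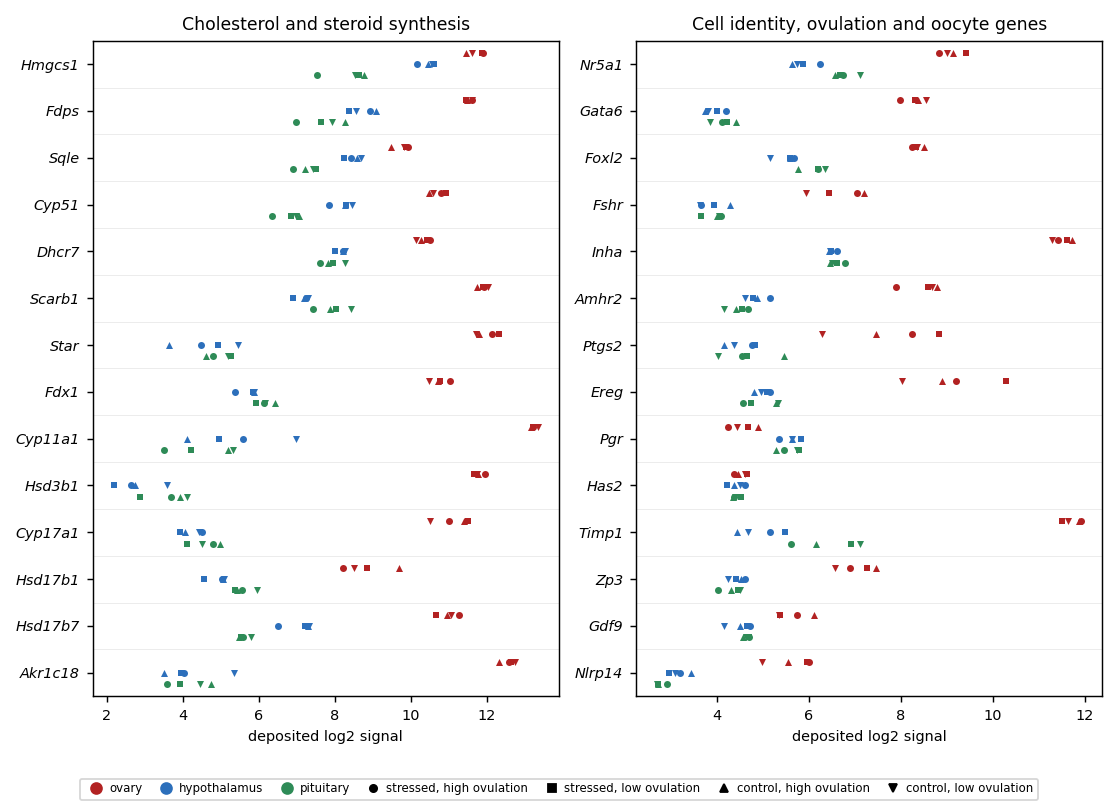
Deposited log2 signals (horizontal axes) of 28 genes in all 12 single-mouse arrays, with ovary in red above hypothalamus in blue and pituitary in green, and 1 marker shape per mouse. Steroid enzymes such as Hsd3b1 show ovary values of 11.67 to 11.96, against 2.18 to 4.10 in the other tissues, while Has2 overlaps between all tissues and Pgr is lower in ovary.

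Genes of the corpus luteum included Akr1c18, the first of the higher genes when ranked by the smaller of the 2 mean differences. Of 17 measured members, 14 were higher, 10 at least 4-fold, and 1 was lower, with medians of 2.99 and 3.17. Akr1c18, which converts progesterone to an inactive form, was at 12.59, 12.64, 12.32 and 12.75 in ovary, against 4.02, 3.96, 3.52 and 5.34 in hypothalamus and 3.58, 3.92, 4.74 and 4.45 in pituitary. Its differences of 8.37 (SE 0.31) and 8.40 had adjusted p-values of 1.15e-12 and 2.17e-12 by limma. Ptgfr, the prostaglandin F receptor through which the corpus luteum is brought to regress, was at 10.86, 10.35, 10.47 and 10.92 in ovary, with differences of 5.54 and 5.65. Sfrp4, a secreted Wnt antagonist, differed by 6.42 and 5.88, and the membrane pump Abcb1b by 6.58 and 4.98. The member lower in ovary was Cidea, a lipid droplet protein, at -1.36 and -2.61. Closely related copies exist for several of these genes, such as Akr1c18 and Akr1cl (8.25 and 6.58), Hsd3b1 and Hsd3b6 (2.30 and 2.56), and Cyp11b1 and Cyp11b2, and how far their probes share signal was not tested.

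Of the remaining genes at the top of the list of higher genes, several have enzyme or transport roles. Cyp11b1, a steroid hydroxylase best known from the adrenal cortex, stood at 10.81, 11.29, 10.52 and 10.70 in ovary, against 3.77, 3.71, 4.37 and 3.73 in hypothalamus and 4.05, 3.68, 2.55 and 3.79 in pituitary. Mrap, an accessory protein of the corticotropin receptor, was at 11.68, 11.75, 11.76 and 11.54 in ovary and differed by 6.77 and 7.01. The adrenal cortex markers Cyp11b2, Mc2r and Cyp21a1, looked up after these values had been seen, were not called in both contrasts: their ovary means ± SD were 3.82 ± 0.30, 3.79 ± 0.23 and 4.03 ± 0.42 (n = 4). Mc2r differed by 0.20 and 0.23, while Cyp21a1 differed by 0.48 from hypothalamus and was higher than in pituitary by 0.73, with an adjusted p of 0.00888 by limma. Endothelial lipase, Lipg, differed by 6.56 and 7.01, the epoxide hydrolase Ephx2 by 5.66 and 6.00, the pantetheinase Vnn1 by 5.83 and 5.56, and the hydroxyacid oxidase Hao2 by 5.56 and 5.97. Saa3, an acute-phase protein, was at 9.27, 8.06, 9.26 and 9.91 in ovary, against 4.31, 3.55, 2.99 and 4.60 in hypothalamus and 4.38, 3.29, 3.27 and 4.26 in pituitary. Rhox8, a homeobox gene of the reproductive tract, differed by 5.40 and 5.0.

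Transcription factors of ovarian somatic cells were nearly all higher. Of 19 measured, 17 were higher, 10 at least 4-fold, and none was lower, with medians of 2.24 and 2.33. Gata6, a zinc-finger factor of granulosa and theca cells, was at 7.97, 8.31, 8.36 and 8.54 in ovary, against 4.20, 4.0, 3.74 and 3.80 in hypothalamus and 4.12, 4.21, 4.42 and 3.85 in pituitary. Nr5a1, the orphan nuclear receptor SF-1 that is also used by pituitary gonadotropes and by the ventromedial hypothalamus, stood at 8.83, 9.41, 9.14 and 9.00 in ovary, against 6.24, 5.86, 5.62 and 5.74 in hypothalamus and 6.73, 6.67, 6.56 and 7.10 in pituitary. The ovary thus lay above both other tissues in every mouse also for a factor that they share. Its relative Nr5a2 differed by 3.73 and 3.74. Foxl2, which holds granulosa cells to the female fate and is also made in the pituitary, differed by 2.86 and 2.23, and Gata4 by 2.93 and 2.85. Tcf21 differed by 4.45 and 3.67 and Osr2 by 4.11 and 4.05, beside 4.36 and 4.14 for Gata6. The members not called were Lhx9 (-0.09 and 0.93) and Nr0b1 (0.93 and -0.63).

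Granulosa growth genes split. Of 20 measured, 13 were higher, 6 at least 4-fold, and 2 were lower. Inha, the inhibin alpha subunit, was at 11.42, 11.61, 11.72 and 11.29 in ovary, against 6.61, 6.48, 6.42 and 6.45 in hypothalamus and 6.78, 6.60, 6.45 and 6.49 in pituitary, differing by 5.02 (SE 0.14) and 4.93. Its partners were closer to the other tissues, with Inhba at 1.25 and 1.68 and Inhbb at 1.28 and 0.78. The call of Inhbb against pituitary was lost, at 0.57 to 0.77, without any of 4 arrays: the ovary of the control mouse of high ovulation, the ovary of the stressed mouse of low ovulation, the pituitary of the control mouse of high ovulation and that of the stressed mouse of high ovulation. Fshr, the receptor for follicle-stimulating hormone, stood at 7.04, 6.43, 7.19 and 5.93 in ovary, against 3.64, 3.93, 4.28 and 3.62 in hypothalamus and 4.08, 3.66, 3.99 and 4.04 in pituitary. In both treatments the mouse of high ovulation had the higher Fshr signal, with 1 mouse in each class. Amhr2, the receptor for anti-Müllerian hormone, differed by 3.63 and 4.04, while its ligand Amh differed by 1.09 and 1.16. The lower members were the nuclear receptor Nr4a2 (-0.92 and -2.60) and the imprinted gene Nap1l5 (-4.03 and -2.89). Ccnd2, which drives granulosa proliferation, lay between the tissues, at 1.96 above hypothalamus and -1.57 from pituitary.

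Genes of the LH response and ovulation also split between large gaps and no call. Of 22 measured, 17 were higher, 8 at least 4-fold, and 2 were lower, with medians of 1.53 and 1.34. Of the 9 members among the 11090 genes of higher mean signal, 8 were higher and 1 lower. That mean is taken over all 12 arrays, so a gene high in any of the tissues passes more easily. Counts within this set, here and below, are therefore no separate support for a tissue difference. Ereg, an EGF-like factor that relays the LH signal, was at 9.20, 10.28, 8.90 and 8.03 in ovary, against 5.15, 5.09, 4.81 and 4.96 in hypothalamus and 4.56, 4.74, 5.28 and 5.33 in pituitary. Ptgs2, the inducible prostaglandin synthase, was at 8.24, 8.83, 7.46 and 6.27 in ovary, against 4.76, 4.83, 4.15 and 4.36 in hypothalamus and 4.54, 4.64, 5.44 and 4.03 in pituitary. For both genes the 4 ovaries fell in the same order, the stressed mouse of low ovulation highest and the control mouse of low ovulation lowest, with all of them above every other array. Adamts1, a protease that acts on the cumulus matrix, differed by 3.76 and 3.99, and its substrate Vcan by 2.87 and 3.61. The hyaluronan synthase of cumulus expansion, Has2, was at 4.36, 4.65, 4.46 and 4.60 in ovary, against 4.61, 4.22, 4.37 and 4.50 in hypothalamus and 4.36, 4.52, 4.34 and 4.39 in pituitary, with differences of 0.10 (SE 0.14) and 0.12 that did not pass the test. Tnfaip6, which links hyaluronan chains, was higher by 3.08 than in pituitary but by 0.46 than in hypothalamus, where its adjusted p by limma was 0.0495 and the call was lost, at 0.36 to 0.47, without any of 7 of the 12 arrays: 2 ovaries (control high and stressed low ovulation), 3 hypothalami (all but control low) and 2 pituitaries (both of low ovulation). Pgr, the progesterone receptor that LH induces for a short time in granulosa cells, was lower in ovary, at 4.23, 4.66, 4.89 and 4.42, against 5.34, 5.83, 5.62 and 5.62 in hypothalamus and 5.45, 5.77, 5.28 and 5.74 in pituitary. The differences of -1.05 and -1.01 had adjusted p-values of 9.16e-05 and 0.000187.

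Of 22 matrix proteases and inhibitors measured, 17 were higher, 10 at least 4-fold, and none was lower. Timp1, an inhibitor of metalloproteinases, was at 11.92, 11.49, 11.86 and 11.63 in ovary, against 5.15, 5.47, 4.44 and 4.66 in hypothalamus and 5.60, 6.90, 6.16 and 7.10 in pituitary, a gap of 6.80 and 5.29. Plau, the urokinase-type plasminogen activator, differed by 5.26 from each tissue, and the protease-like Prss35 by 5.52 and 6.76. Mmp2, a gelatinase, differed by 5.05 and 4.40.

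Genes of the oocyte were higher by less, and many were not called. Of 19 zona pellucida and secreted oocyte factors, 11 were higher, 2 of them at least 4-fold, and 1 was lower. None of the 11 was among the 11090 genes of higher mean signal, which held 2 members, and in the stressed mice alone none was lower. Zp3, a zona protein that binds sperm, was at 6.89, 7.26, 7.46 and 6.56 in ovary, against 4.60, 4.40, 4.53 and 4.23 in hypothalamus and 4.01, 4.46, 4.30 and 4.49 in pituitary. Zp2 differed by 3.26 and 2.94, and Zp1 by 1.27 and 1.09. The secreted growth factors Gdf9 (1.14 and 1.0) and Bmp15 (1.51 and 1.30) were also higher. Of 63 maternal-effect and oocyte RNA genes, 20 were higher, 2 at least 4-fold (Nlrp14, at 2.46 and 2.87, and Padi6, at 2.26 and 2.58), and 2 were lower. In the control mice alone 12 of the 63 were higher, and in the stressed mice alone 13. Only 10 of the 63 were among the 11090 genes of higher mean signal, and 7 of these were higher. The lower members were Uchl1 (-3.45 and -1.80) and Cpeb1 (-2.32 and -1.59), which neurons also express. Of 10 Nlrp genes beside Nlrp14, 1 was higher, Nlrp5 (1.71 and 1.97), beside 13.6% higher over all genes, and none was lower.

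Connective tissue, vessels, immune cells and division formed a further set of higher genes. Of 24 collagens and stromal matrix genes, 20 were higher, 13 at least 4-fold, and none was lower. Col3a1, a fibrillar collagen, was at 10.24, 11.13, 10.73 and 11.05 in ovary, against 5.27, 5.85, 4.89 and 5.74 in hypothalamus and 6.53, 7.33, 6.83 and 7.13 in pituitary. Dcn, a small proteoglycan, differed by 3.49 from hypothalamus but by 0.41 from pituitary, and was not called. Of 15 smooth muscle and pericyte genes, 12 were higher, with Acta2 at 4.20 and 4.76 and Cnn1, which is calponin, at 5.17 and 5.65. Endothelial and lymphatic genes were higher in 15 of 20, and Cdh5, a junction protein, differed by 3.10 and 1.80. The only lower one of that list was Prox1 (-1.72 and -2.01), a lymphatic factor that neurons also use. Of 21 macrophage and leukocyte genes, 13 were higher, with Mrc1 at 2.92 and 2.25, and none was lower. The 3 leukocyte markers together summed to at least 23.1 in every ovary, against at most 20.9 in every array of the other tissues. Of 29 cell cycle genes, 24 were higher and none was lower, with medians of 2.02 against hypothalamus and 1.29 against pituitary. In the control mice alone 14 were higher. Top2a, a topoisomerase of dividing cells, was at 7.54, 7.67, 7.70 and 7.22 in ovary, against 4.31, 4.30, 3.62 and 4.25 in hypothalamus and 5.51, 6.03, 6.77 and 6.67 in pituitary, so that the pituitary lay between the others.

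Genes of 4 smaller ovarian groups were mixed. Of 16 theca and interstitial genes, 10 were higher and none was lower, and the hedgehog targets Ptch1 (-1.09 and 0.21) and Gli1 (0.15 and 0.61) were not called. Of 17 surface epithelium genes, 9 were higher, with Upk3b at 2.87 and 3.08, and the neuronal membrane protein Gpm6a was the single lower one, at -4.80 and -3.35. Of the 11 among the 11090 genes of higher mean signal, 5 were higher. Of 14 retinoic acid genes, 9 were higher and 2 lower. The retinaldehyde dehydrogenase Aldh1a1 was at 11.26, 11.77, 11.24 and 11.15 in ovary, against 7.45, 8.67, 7.52 and 7.93 in hypothalamus and 7.07, 7.57, 7.55 and 7.50 in pituitary. The lower retinoid genes were the binding protein Crabp1 (-1.04 and -0.57) and the receptor Rarb (-0.56 and -1.72). The call of Crabp1 was lost without the pituitary of the control mouse of low ovulation (-0.50). That of Rarb was lost, at -0.46 to -0.50, without the ovary of the stressed mouse of high ovulation, the hypothalamus of the control mouse of high ovulation or that of the stressed mouse of low ovulation. Of 20 glutathione and oxidative defence genes, 8 were higher and none was lower, with medians of 0.38 and 0.61; after quantile normalization 1 was lower.

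Markers of tissues that adjoin the ovary, or that could have been dissected with it, were set beside these lists. Of 13 oviduct epithelium genes, 2 were higher and 4 lower. The markers Foxj1 (-1.03 and -0.25) and Pax8 (0.37 and 0.18) were not called in both contrasts. Foxj1 was lower than in hypothalamus, with an adjusted p of 0.000261 by limma. The summed signal of Foxj1 and Pax8 was 7.7 to 8.7 in ovary, against 8.5 to 9.5 in hypothalamus and 7.7 to 9.1 in pituitary. Whether oviduct or fat was dissected with the ovary was not tested. Of 14 fat genes, 5 were higher (2 of the 4 among the 11090 genes of higher mean signal), among them Plin1 (2.16 and 2.14), Plin4 (4.12 and 4.19) and Pparg (2.93 and 2.97). The defining fat marker Adipoq was at 3.57 ± 0.37 in ovary (SD, n = 4) with differences of -0.06 and -0.14. Without any of 5 arrays (2 ovaries and 3 hypothalami), 1 oviduct gene was higher. Of 12 uterus and skeletal muscle genes, 1 was higher and 1 lower, and the lower call was lost without any of 4 arrays (2 ovaries and 2 hypothalami) and with arrays centred on their medians. Beside these counts stand the shares over all genes, 13.6% higher and 9.63% lower than in both tissues. None of 25 ribosomal protein genes and none of 28 respiratory chain genes was higher or lower than in both tissues. Single contrasts did call some. Of the ribosomal protein genes, 11 were higher than in hypothalamus, beside 22.3% of all genes, and 1 was higher than in pituitary. Of the respiratory chain genes, 1 was higher and 3 lower than in hypothalamus. Against pituitary, 10 of them were higher, beside 20.1% of all genes, and 1 was lower. With the mouse as a block, or treatment and class as covariates, 2 ribosomal protein genes were higher than in both. With median centring, array weights, other choices of cluster or only the 11090 genes of higher mean signal, 1 was higher. The same count came with each contrast fitted alone and with the control mice alone. Without 1 of 3 arrays 1 or 2 ribosomal protein genes were higher: these were the ovary and the hypothalamus of the stressed mouse of low ovulation and the pituitary of the control mouse of high ovulation. Without the pituitary of the control mouse of low ovulation, or with the pools added, 1 respiratory chain gene was higher.

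**Figure D3:**
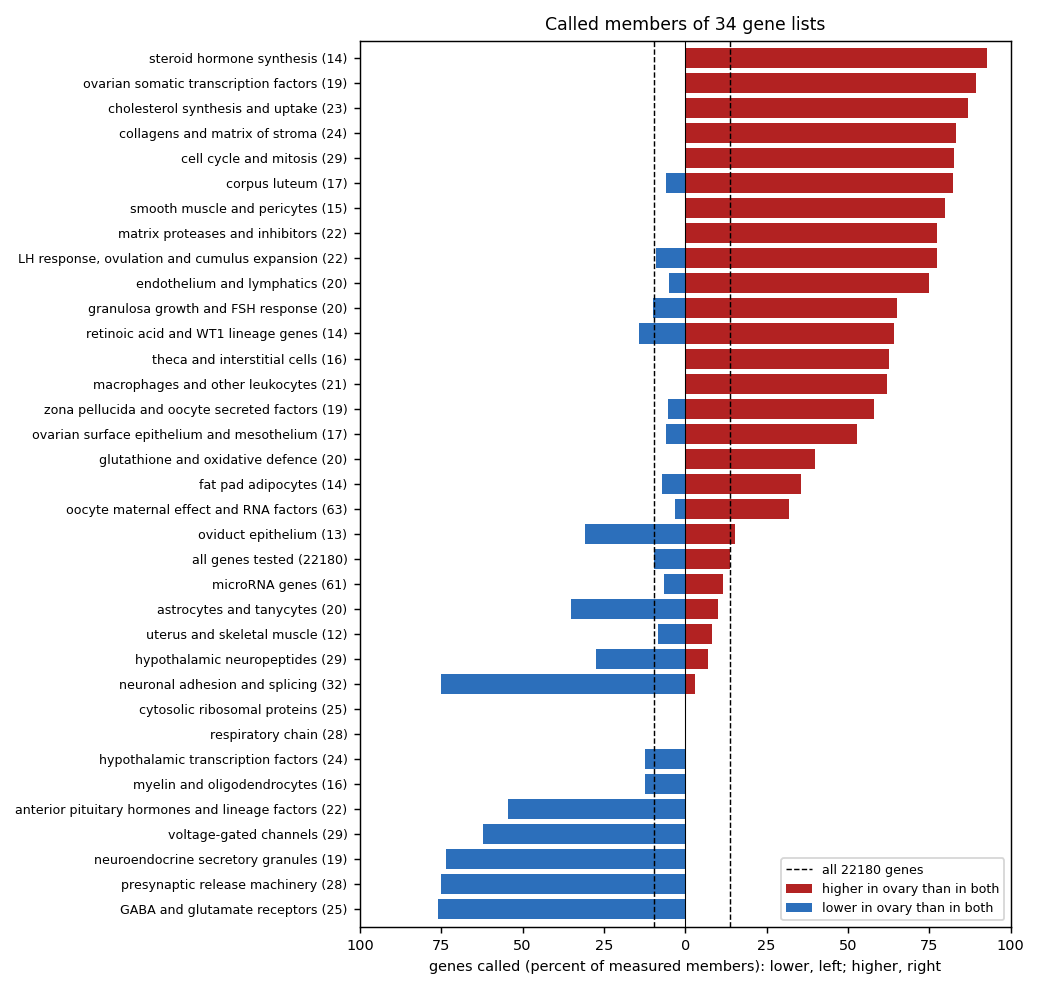
Share of measured members (number in brackets) called higher (red, right) or lower (blue, left) in ovary than in both other tissues, for 34 lists and for all genes. The lists were chosen with earlier results of these data known. The broken lines mark the shares over all 22180 genes, 13.6% higher and 9.63% lower, and steroid synthesis and neurotransmitter receptors lie at the ends of the ordering.

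Among the lists with genes lower in ovary were those of the regulated secretion that neurons and endocrine cells share. Of 19 measured genes of neuroendocrine secretory granules, 14 were lower, 12 at least 4-fold, and none was higher, with medians of -4.15 against hypothalamus and -3.96 against pituitary. Resp18, an endoplasmic reticulum and granule protein, was at 4.85, 4.57, 4.90 and 4.30 in ovary, against 11.47, 11.42, 11.36 and 11.06 in hypothalamus and 11.57, 11.51, 11.64 and 11.68 in pituitary. The differences of -6.67 (SE 0.16) and -6.94 had adjusted p-values of 2.27e-14 and 1.19e-14. Scg3, a granin that sorts cargo into granules, was at 4.13, 4.17, 3.94 and 3.84 in ovary, against 10.28, 10.64, 10.06 and 10.39 in hypothalamus and 11.10, 11.25, 10.74 and 11.49 in pituitary. Its relatives Scg2 (-5.69 and -6.53), Scg5 (-5.40 and -6.23) and Chgb (-5.15 and -7.53) lay farther below pituitary than below hypothalamus. The prohormone convertase Pcsk1 differed by -4.15 and -5.35.

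Of 28 genes of the presynaptic release machinery, 21 were lower, 14 at least 4-fold, and none was higher. Syt4, a synaptotagmin, was at 3.87, 2.77, 3.52 and 3.20 in ovary, against 9.66, 10.45, 9.84 and 10.24 in hypothalamus and 10.16, 10.23, 10.30 and 10.42 in pituitary. Its differences of -6.71 and -6.94 were the largest of the named lower genes by the smaller of each pair. Snap25, a membrane fusion protein, was at 7.30, 5.33, 5.74 and 5.03 in ovary, against 12.11, 12.39, 12.23 and 12.47 in hypothalamus and 11.39, 11.58, 11.60 and 11.89 in pituitary. The stressed mouse of high ovulation was the highest of the ovaries, but still below all others. Complexin Cplx1 (-4.73 and 0.12) and the vesicular transporter Slc32a1 (-3.26 and 0.27) were lower than in hypothalamus and were not called against pituitary.

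Receptors, channels and adhesion molecules followed. Of 25 GABA and glutamate receptor genes, 19 were lower, 10 at least 4-fold, and none was higher. Gabra2, a GABA receptor subunit, was at 4.15, 4.28, 3.81 and 3.03 in ovary, against 9.14, 9.87, 9.16 and 9.85 in hypothalamus and 8.95, 9.01, 9.33 and 9.33 in pituitary. Of 29 voltage-gated channel genes, 18 were lower, 3 at least 4-fold (Scn3a, Scn8a and Scn2b), and none was higher. Of 32 neuronal adhesion and splicing genes, 24 were lower and 1, Nrcam, was higher, at 0.71 and 2.25. Cntn1, a contactin, differed by -6.41 and -4.95. For these lists the medians were farther from 0 against hypothalamus (-3.86, -3.01 and -3.46) than against pituitary (-1.49, -0.94 and -1.23). Further genes at the top of the lower list were the Arf regulator Elmod1 (-6.43 and -6.20), the calcium-binding protein Calb1 (-6.05 and -6.03), the neuronal GTPase Rit2 (-5.77 and -5.72), the lipid-binding Apod (-5.34 and -5.83) and the G-protein subunit Gng3 (-5.56 and -4.97). Tmem59l, Fam155a, Tmem130, Gdap1, Minar2 and Bex2 were also among these 20 genes, with the smaller difference between -5.03 and -5.69.

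Hormone and peptide genes of the pituitary and hypothalamus were compared next. Of 22 pituitary hormone and lineage genes, 21 were lower than in pituitary and 12 were lower than in both tissues. Fshb, the follicle-stimulating hormone subunit, was at 4.14, 4.71, 4.85 and 4.46 in ovary, against 4.47, 4.47, 4.49 and 4.74 in hypothalamus and 11.70, 11.98, 12.15 and 12.05 in pituitary. Prl was at 4.90, 3.63, 4.81 and 5.09 in ovary, against 13.56, 13.60, 13.55 and 13.50 in pituitary, and its difference from hypothalamus was -2.90 (SE 0.58). The hypothalamic Prl values are those given above. The difference was -3.56 without the hypothalamus of the control mouse of high ovulation, -2.31 without that of the control mouse of low ovulation, and -0.64, not called, with the 6 pools added. Gh, growth hormone, was at 7.81, 6.15, 5.67 and 8.14 in hypothalamus, the same order of mice as for Prl. Its difference from hypothalamus was -1.55, and 0.046 with the pools added. With the pools, the median of the whole list against hypothalamus was -0.507, in place of -0.94. Of 29 hypothalamic neuropeptide genes, 25 were lower than in hypothalamus and 8 were lower than in both tissues, against 4 in the stressed mice alone. Oxt, oxytocin, was at 4.57, 4.06, 4.60 and 4.70 in ovary, against 9.89, 9.52, 10.04 and 8.98 in hypothalamus and 6.64, 6.11, 7.23 and 6.92 in pituitary, while Pmch differed by -7.21 from hypothalamus and by 0.05 from pituitary. Hdc, which makes histamine, was higher in ovary at 8.95, 8.68, 9.10 and 8.53, against 7.36, 7.06, 6.86 and 7.12 in hypothalamus and 5.93, 5.99, 5.75 and 6.05 in pituitary, and the peptide gene Nmu was higher by 1.06 and 1.17. Of 24 hypothalamic transcription factors, 19 were lower than in hypothalamus and 3 lower than in both. All 16 myelin genes were lower than in hypothalamus, and 2 were lower than in both. Of 20 astrocyte genes, 15 were lower than in hypothalamus and 7 lower than in both, with Vim and Gja1 higher. Over all genes, 19.6% were lower than in hypothalamus, 17.5% lower than in pituitary and 9.63% lower than in both.

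A smaller number of genes placed the ovary between the other tissues. There were 224 genes above hypothalamus and below pituitary (1.01%) and 305 below hypothalamus and above pituitary (1.38%). Epcam, an epithelial adhesion protein, was at 6.89, 6.77, 7.04 and 6.87 in ovary, against 4.74, 5.23, 4.92 and 5.32 in hypothalamus and 10.69, 10.70, 10.51 and 10.80 in pituitary. Fam114a1 (2.43 and -1.94), the exonuclease Isg20 (2.26 and -1.92), Fetub (2.18 and -1.83) and the RNA-editing enzyme Apobec1 (1.81 and -1.62) took the same middle place. Nts, neurotensin, was at 7.29, 5.97, 7.06 and 6.04 in ovary, against 8.17, 9.00, 9.12 and 8.27 in hypothalamus and 3.07, 3.42, 3.76 and 3.89 in pituitary. In both treatments the mouse of high ovulation had the higher ovarian Nts signal, with 1 mouse in each class. Lgi2 (-1.64 and 2.21), Ndrg2 (-1.60 and 1.86), Cdk18 (-1.46 and 2.06) and the potassium channel Kcnj16 (-1.51 and 1.45) were the other genes named by the rule.

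A block of neighbouring genes was lower in ovary. The Dlk1 to Dio3 domain on mouse chromosome 12 is imprinted: Dlk1 and Dio3 are expressed from the paternal copy, and Meg3, Rian and the small RNAs of the domain from the maternal copy. The domain was taken up after its values had been seen. Of its 55 measured genes, 39 (70.9%) were lower than in both tissues, 14 (25.5%) at least 4-fold, and none was higher, beside 9.63% lower over all genes. The medians were -1.27 against hypothalamus and -2.09 against pituitary. Dlk1, a membrane protein of the Notch-ligand type, was at 5.55, 5.05, 5.35 and 5.65 in ovary, against 8.47, 7.79, 8.13 and 7.80 in hypothalamus and 10.07, 10.03, 9.55 and 10.02 in pituitary. Rian, a long noncoding RNA that carries small nucleolar RNAs, was at 6.40, 6.70, 7.03 and 6.31 in ovary, against 9.64, 10.23, 9.72 and 10.37 in hypothalamus and 11.61, 11.58, 10.96 and 10.69 in pituitary. All 5 small nucleolar RNAs and 31 of 43 microRNA genes of the domain were lower, as were 1 of 4 long noncoding RNAs and 1 of 2 protein-coding genes. Small RNAs that share a transcript are not independent of each other. The share of the domain is therefore not one of separate genes, as that over all genes is. Meg3 (-0.53 and -1.38), Dio3 and Dio3os were not called. When arrays were centred on their medians, 1 gene of the domain was called higher. Of the 19 genes of the domain among the 11090 genes of higher mean signal, 16 were lower.

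**Figure D4:**
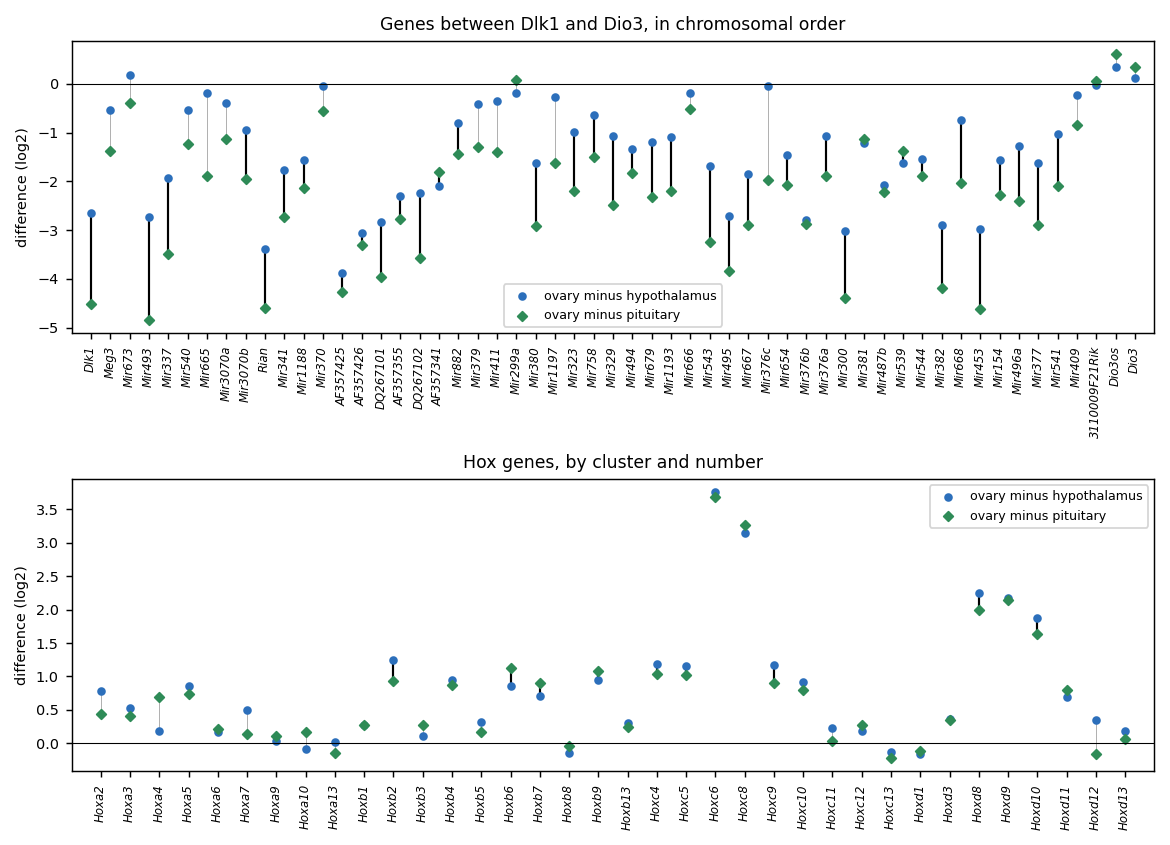
Mean log2 difference of ovary from hypothalamus (blue circles) and from pituitary (green diamonds), for 55 genes from Dlk1 to Dio3 in chromosomal order (top) and for 36 Hox genes (bottom), with black connecting lines where a gene was called in both contrasts and grey lines elsewhere. The 39 called genes of the domain lie below 0 in both contrasts and the 17 called Hox genes above 0.

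The mature microRNAs of the called domain genes had no common seed, the bases 2 to 8 that pair with target RNAs. The 31 lower microRNA genes held 57 different seeds, and 1 of them, GGUUGCC, was shared by 2 mature forms. Those shown are from the genes farthest below the other tissues and from the pair with the shared seed, from RefSeq on GRCm38.p6, 5′ to 3′, with the seed in capitals. They lie on the plus strand at chr12:109724363-109724384 (miR-300-3p), chr12:109735669-109735692 (miR-453), chr12:109739132-109739152 (miR-496a-5p) and chr12:109733781-109733802 (miR-382-5p).
mmu-miR-300-3p: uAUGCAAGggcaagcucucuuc
mmu-miR-453: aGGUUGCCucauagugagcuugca
mmu-miR-496a-5p: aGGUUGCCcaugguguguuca
mmu-miR-382-5p: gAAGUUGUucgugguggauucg
The gene Mir300 was at 2.40, 2.75, 2.79 and 2.97 in ovary, against 6.47, 5.29, 5.47 and 5.74 in hypothalamus and 7.71, 7.39, 6.46 and 6.96 in pituitary. Mir453 differed by -2.97 and -4.61, Mir382 by -2.90 and -4.18, and Mir496a by -1.27 and -2.40. Whether these clusters read the mature form, the hairpin or the primary transcript was not tested.

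Outside the domain the microRNA genes were called less often than genes at large, in either direction. Of 435 measured, 16 were higher (3.68%) and 14 lower (3.22%), beside 13.6% and 9.63% over all genes. None differed by 4-fold from both tissues. Mir202, a microRNA gene known for its expression in gonads, was at 5.88, 5.99, 6.14 and 5.66 in ovary, against 3.83, 3.98, 3.69 and 3.36 in hypothalamus and 4.15, 4.06, 4.47 and 3.30 in pituitary, with differences of 2.20 (SE 0.22) and 1.92. Mir145a, which is abundant in smooth muscle, differed by 1.97 and 2.39. Mir204 was at 4.88, 4.82, 4.58 and 5.20 in ovary, against 2.07, 2.55, 3.33 and 2.55 in hypothalamus and 2.58, 3.16, 3.85 and 2.58 in pituitary, although Trpm3, the channel gene in whose span RefSeq places it, was lower in ovary, at -4.26 and -3.33. Mir218-2 (1.15 and 1.17) and the gene that spans it, Slit3 (2.40 and 3.02), were both higher. The sequences of these higher microRNAs show that their seeds differ as well. They lie at chr7:139957732-139957752 (miR-202-5p) and chr7:139957695-139957716 (miR-202-3p) on the minus strand, and at chr19:22750610-22750631 (miR-204-5p) and chr11:35616840-35616860 (miR-218-5p) on the plus strand.
mmu-miR-202-5p: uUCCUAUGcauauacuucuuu
mmu-miR-202-3p: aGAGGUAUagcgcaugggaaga
mmu-miR-204-5p: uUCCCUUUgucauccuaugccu
mmu-miR-218-5p: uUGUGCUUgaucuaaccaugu

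Hox genes, which give cells of the trunk their position along the body axis, were higher in ovary where they were called. Of 36 measured, 17 (47.2%) were higher, 4 at least 4-fold, and none was lower, beside 13.6% higher over all genes. This family too was taken up after its values had been seen. Hoxc6 was at 7.68, 7.61, 7.58 and 7.41 in ovary, against 3.68, 4.49, 3.42 and 3.66 in hypothalamus and 3.29, 3.94, 4.11 and 4.18 in pituitary, and Hoxc8 differed by 3.15 and 3.27. Hoxd9 (2.17 and 2.14) and Hoxd8 (2.25 and 2.00) completed the 4-fold group. The Hoxc cluster had 6 of 9 genes called, Hoxb 5 of 10, Hoxd 4 of 8 and Hoxa 2 of 9. In the stressed mice alone 11 Hox genes were called. None of the 36 was among the 11090 genes of higher mean signal, so none was tested in that set.

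The bases before the transcription start were searched for 7 motifs on both strands, 250 bases for each gene, in 282 of the 378 higher genes, 276 of the 360 lower genes and 16990 genes in all with a RefSeq promoter. CAAGGTCA, the letters read by Nr5a1 and Nr5a2, was held by 1.42% of the higher genes, 1.45% of the lower genes and 1.14% of all. AGATAA, the core read by the factor family of Gata4 and Gata6, was held by 7.09%, 6.88% and 9.09%, TGACGTCA, the cyclic AMP response element, by 1.42%, 3.26% and 2.11%, and TGANTCA, an AP-1 motif, by 7.45%, 4.71% and 6.48%. The CArG box of serum response factor was in 1.42%, 0.725% and 1.29%, and TATAAA in 12.1%, 8.7% and 11.9%. TTCAGCACC, letters of the site of the neuronal gene repressor REST, was in none of the higher genes, 1.45% of the lower genes and 0.33% of all. Overlap between motifs was not removed. Among the 4 higher genes with CAAGGTCA were Amhr2, where it began 232 bases before the start, and Dhcr7, where it began 52 bases before. Their promoters, the 250 bases before the start, are shown because these genes belong to the granulosa and cholesterol lists, from RefSeq on GRCm38.p6 at chr15:102445117-102445366 and chr7:143822917-143823166, both on the plus strand, with the motif in capitals. Dner, a Notch-related neuronal protein and the lower gene with TTCAGCACC that lay farthest below the other tissues, is shown with that motif in capitals, at chr1:84696222-84696471 on the minus strand. Dner is also among the 4 lower genes with CAAGGTCA, which begins 113 bases before its start and is left in lower case.
Amhr2: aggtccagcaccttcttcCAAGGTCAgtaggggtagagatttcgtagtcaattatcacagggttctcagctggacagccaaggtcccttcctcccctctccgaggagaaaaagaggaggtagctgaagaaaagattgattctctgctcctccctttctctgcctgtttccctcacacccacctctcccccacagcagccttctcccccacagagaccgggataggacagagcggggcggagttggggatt
Dhcr7: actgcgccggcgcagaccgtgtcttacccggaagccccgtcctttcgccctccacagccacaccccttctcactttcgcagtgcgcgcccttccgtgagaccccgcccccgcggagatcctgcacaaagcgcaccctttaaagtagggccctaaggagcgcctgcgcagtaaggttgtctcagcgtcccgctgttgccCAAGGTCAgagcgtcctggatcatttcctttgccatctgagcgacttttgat
Dner: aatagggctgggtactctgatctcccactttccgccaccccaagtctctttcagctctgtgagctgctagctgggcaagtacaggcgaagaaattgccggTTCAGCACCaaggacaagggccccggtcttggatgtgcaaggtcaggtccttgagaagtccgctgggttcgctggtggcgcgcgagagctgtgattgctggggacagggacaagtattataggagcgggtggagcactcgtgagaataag
A match describes the letters of this window and no more.

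The lower genes were longer. Among protein-coding genes, the median span in RefSeq was 58.2 kb for the 331 genes at least 4-fold lower, against 21.9 kb for the 371 at least 4-fold higher and 18.7 kb for all 18964. Spans of at least 200 kb made up 25.7% of the lower genes, 4.31% of the higher ones and 4.85% of all. By chromosome, the share of genes at least 4-fold lower was 0.728% (chromosome 11) to 3.48% (chromosome 12), beside 1.62% over all genes. Chromosome 12 had 26 of 748, but 12 of 694 (1.73%) outside the Dlk1 to Dio3 domain. Chromosome X had 26 of 899 (2.89%), and chromosomes 1, 18 and 15 had 2.60%, 2.51% and 2.50%.

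Some genes of the 4-fold groups varied widely between the 4 ovaries. Hamp, hepcidin, was at 7.07, 3.40, 6.77 and 5.78 in ovary, against 2.34, 2.65, 2.06 and 1.81 in hypothalamus and 3.05, 2.02, 2.10 and 2.46 in pituitary. The interferon-inducible Ifi204 was at 7.05, 3.88, 3.92 and 4.09 in ovary, against 1.47, 1.57, 1.07 and 1.52 in hypothalamus and 4.58, 1.83, 1.84 and 2.02 in pituitary. Its relative Ifi202b was at 8.11, 5.70, 5.44 and 5.87 in ovary, against 2.76, 3.39, 2.70 and 3.29 in hypothalamus and 4.39, 3.29, 3.74 and 3.34 in pituitary. For both interferon-inducible genes, the stressed mouse of high ovulation had the highest signal in its ovary and in its pituitary. Without that ovary, Ifi204 differed by 2.56 from hypothalamus and by 1.40 from pituitary, in place of 3.33 and 2.17, and Ifi202b by 2.63 and 1.98 in place of 3.24 and 2.59. Without that pituitary, Ifi204 differed from pituitary by 2.84. Without the ovary of the stressed mouse of low ovulation, Hamp differed by 4.32 and 4.13, in place of 3.54 and 3.35. Ear6, an eosinophil-type ribonuclease, was at 6.35, 4.22, 7.03 and 5.08 in ovary and was higher in the mouse of high ovulation in both treatments, as was Hamp. Sema3d, at 6.65, 7.71, 6.60 and 9.10 in ovary, and Plekhg4, at 6.26, 7.30, 6.66 and 8.56, were higher in the mouse of low ovulation in both. With 1 mouse for each class and treatment, these orders have no test. Among lower genes, the widest ranges were those of Snap25 and of Mlc1, an astrocyte membrane protein at 5.51, 5.05, 3.33 and 4.47 in ovary, followed by Sez6l2, Pcsk1n, Amer3, Actl6b, Nap1l5 and St8sia3. With the lowest-numbered transcript cluster in place of the brightest, Sez6l2 differed from pituitary by 0.08.

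**Figure D5:**
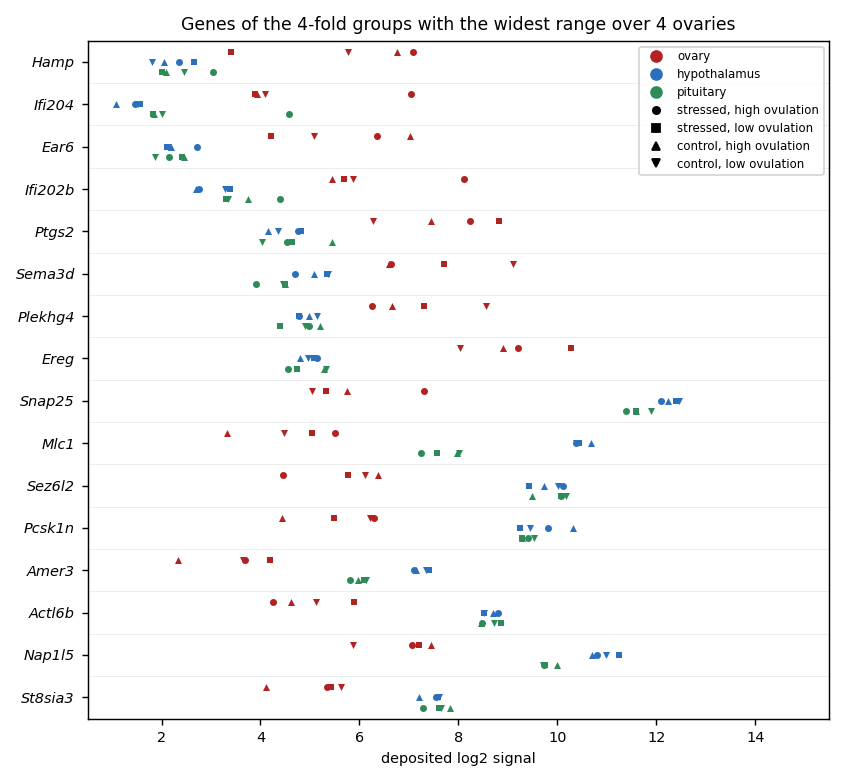
Deposited log2 signals (horizontal axis) in all 12 single-mouse arrays of the 8 genes of the 4-fold higher group (upper rows) and the 8 of the 4-fold lower group (lower rows) with the widest range over 4 ovaries, in red above hypothalamus in blue and pituitary in green. Ifi204 and Ifi202b each show 1 ovary, that of the stressed mouse of high ovulation, well above the other ovaries.

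Whether the ovary contrast differed between stressed and control mice was tested with an interaction term: ovary minus the mean of the other tissues in stressed mice, less the same in control mice. By limma no gene passed an adjusted p of 0.05 (0.0%), the lowest adjusted p was 0.9996, and 769 genes (3.47%) had an unadjusted p under 0.05. The smallest p-values belonged to the dopamine transporter Slc6a3, at -1.40 (95% interval -2.05 to -0.75), Klhl33 at -1.29, Mlc1 at 1.72, the cytokinesis gene Ect2 at 1.44 and Pdilt at -1.22, all with the adjusted p of 0.9996. Slc6a3 was at 4.94, 5.05, 5.43 and 5.36 in ovary, against 8.09, 8.68, 6.12 and 5.86 in hypothalamus and 5.33, 5.34, 5.96 and 5.50 in pituitary, so that its spread lay in the hypothalamus. Ect2 was at 7.75, 7.80, 7.54 and 6.86 in ovary, against 4.33, 4.21, 4.29 and 4.41 in hypothalamus and 5.41, 5.93, 7.13 and 7.50 in pituitary. Its difference from pituitary was -0.11 in the control mice alone.

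The 4-fold line has no gap beside it. Just inside it on the higher side lay Hoxd8 and Wnt6, whose smaller difference was 2.00, and just outside it Lrrc32 and Rras2, at 1.99. On the lower side Grik1 and Impact, at -2.01, lay just inside and Isl1 and Pak7, at -1.99, just outside.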

How the data were processed

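RNA of 12 organs, 1 from each of 3 tissues of 4 mice, had been hybridised to Mouse Gene 2.0 ST arrays, and replicates are separate animals. The deposited values are signals that the authors made on a log2 scale, per transcript cluster; the submitters' processing notes name the Transcriptome Analysis Console, with its version, background correction and normalization not given in the sources used here. Base 2 follows from the highest signal, 13.66, which exceeds 11.09, the natural log of the top of a 16-bit scanner's range, but not 16, its log2. Array medians were 4.83 to 4.87 in ovary, 4.78 to 4.85 in hypothalamus and 4.90 to 5.03 in pituitary, so that arrays were not centred on one median; how they were scaled stays unknown. No array pair was identical.

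Of 41345 transcript clusters, 25335 had a gene annotation and 16010 had none; 1814 listed several genes and were not named. Entrez numbers matched RefSeq for 23328 clusters, and 0 symbols changed. For the 1082 genes with several clusters, the cluster with the highest mean over the 12 arrays was kept, which left 22180 genes.

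Tissue means were fitted with limma 3.58.1 in R 4.3.3 (lmFit and eBayes) on 9 residual degrees of freedom, without a filter on low values, and p-values of each contrast were adjusted by Benjamini-Hochberg over all 22180 genes. A gene was called where the adjusted p was under 0.05 and the sign equal in both contrasts, and a difference of 2 made the 4-fold group. Tables and figures were made with Python 3.11.15, pandas 2.3.3 and matplotlib 3.10.9. On simulated data for 22180 genes, 53% of 2-fold and 98% of 4-fold changes were called in both contrasts, with 2 false among 153 calls. In the arrays, 5161 genes were called in both contrasts, far more than in that run. How many of these calls are false was not tested, and the share of true changes called there was not tested either. No depth exists for arrays, and their number limits the precision.

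The pairing comes from the labels, by which the 3 tissues are those of the same animals. Deviations from tissue means correlated at -0.19 to 0.21 (median 0.08, 12 pairs) between arrays of the same mouse and at -0.23 to 0.23 (36 pairs) between mice.

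Members and gene lists were chosen with earlier results of these data known. The genes named are the 20 farthest from both tissues in each direction with no overlap between arrays, list members, the 5 middle genes in each direction, the 8 most variable of each 4-fold group, the 5 of smallest p in the interaction and 2 on each side of the 4-fold line. The adrenal markers, Hox genes, Dlk1 to Dio3 domain, imprinted genes, microRNA genes, the genes that span them and the Nlrp relatives were taken up after values had been seen. Pools were left out of the fit. The alternatives were the mouse as a block, each contrast fitted alone, treatment and class as covariates, quantile normalization, median centring, a filter on low signal, other choices of cluster, limma's trend and array weights, the pools added, control or stressed mice alone, each array left out, a shorter promoter window and, added after seeing the data, all clusters tested together.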

Additional observations from a re-analysis of the deposited data

Results flagged for a closer look

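In 32 of 579 groups of 4 arrays (193 genes named in the text, 3 tissues), 1 array stood apart from the other 3, its gap to the nearest being past Dixon's critical value as a share of the group's range. That is 5.53% of groups, and chance alone would set apart about 1 in 20, so the total is near that rate. The rate does not hold for the 16 genes chosen for a wide range over the ovaries, among them Ifi204, Ifi202b, Sez6l2, Nap1l5 and St8sia3. There were 8 such groups in ovary, 10 in hypothalamus and 14 in pituitary.

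The widest gaps were those of interferon-inducible genes in the stressed mouse of high ovulation. Ifi204 stood at 7.05 in its ovary, with the other ovaries at 3.88 to 4.09, and at 4.58 in its pituitary, with the others at 1.83 to 2.02. Ifi202b was at 8.11 in the same ovary, with the others at 5.44 to 5.87. The prohormone convertase Pcsk1 was also highest there, at 4.31, while Cpeb1, a regulator of translation, and the transcription factor Tcf21 were lowest, at 4.42 and 8.59. In the ovary of the stressed mouse of low ovulation, 3 genes of matrix proteolysis or hedgehog signalling stood above the other ovaries: Plau at 11.02, Prss35 at 11.75 and Ptch1 at 7.96.

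In the hypothalamus of the control mouse of high ovulation, Nr4a2 (7.45), St8sia3 (7.21), Klhl33 (4.82) and Top2a (3.62) were lower than in the other hypothalami and Cyp11b1 (4.37) was higher. In that of the stressed mouse of high ovulation, Ear6 was high at 2.71 and Fdx1 low at 5.37. In that of the stressed mouse of low ovulation, Minar2 was high at 9.85 and Hsd17b1 low at 4.56, and in that of the control mouse of low ovulation Fshb was high at 4.74.

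Among the pituitaries, that of the stressed mouse of high ovulation was lowest for Aldh1a1 (7.07), Bex2 (9.50), Ndn (8.11), Padi6 (3.29), Sema3d (3.90) and Tnfaip6 (3.12) and highest for Nlrp14 (2.90). That of the control mouse of high ovulation was highest for Nap1l5 (9.99) and Rras2 (7.21) and lowest for Dlk1 (9.55) and Sez6l2 (9.49). Lipg was high at 4.53 in the control mouse of low ovulation, and Hoxd8 low at 4.65 in the stressed mouse of low ovulation.

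A signal also lay in the 16010 transcript clusters without a gene name, which no comparison above uses. With all clusters tested together by limma, 344 of them (2.15%) were higher in ovary than in both other tissues and 242 (1.51%) lower, with 36 and 38 past 4-fold. In the same test 12.1% of the 22180 named genes were higher and 8.56% lower.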

How the results depend on the processing

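Leaving out each of the 12 arrays in turn gave 2794 to 3065 genes higher and 1980 to 2203 lower than in both tissues, with 370 to 392 and 351 to 365 past 4-fold, and 8737 to 9583 genes called against hypothalamus (4602 to 5117 higher, 4103 to 4466 lower) and 7581 to 8454 against pituitary (4068 to 4491 higher, 3493 to 3963 lower). Over the other 14 alternatives the counts were 1847 to 3464 higher and 1367 to 2295 lower, with 300 to 410 and 337 to 366 past 4-fold. These counts over all genes moved by more than 1.5 times only with 2 mice a group, while counts of single lists also moved with the filter on low signal, as given in the report (LH response 8 higher, zona and oocyte factors 0, maternal-effect genes 7, surface epithelium 5). The control mice alone gave 1847 genes higher in ovary than in both, 5534 called against pituitary and 2810 of these higher. The stressed mice alone gave 1367 lower than in both, 5439 called against pituitary and 2421 of these lower. Of the higher and lower genes, 59.9% and 68.7% were called again in the control mice alone, and 65.6% and 62.5% in the stressed mice alone.

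With the mouse as a replicate block, 3075 genes were higher (2976 of them shared) and 2152 lower (2088 shared), with 378 and 360 past 4-fold; it changed no call of a gene named in the report, other than the ribosomal protein count given there. The interaction had no call by limma with the block (878 genes at an unadjusted p under 0.05) or with the filter (272). Centring arrays on their medians shifted the median of all genes to 0.115 against hypothalamus and 0.053 against pituitary, with 3464 higher and 1941 lower. With a 100-base window, CAAGGTCA was held by 0.709% of the higher genes (2 genes), 0.362% of the lower genes (1 gene) and 0.306% of all, TATAAA by 7.45%, 2.17% and 5.87%, and TTCAGCACC by 0.362% of the lower genes (1 gene) and 0.135% of all.

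For 891 listed or named genes, 44438 of 45616 differences under 26 alternatives kept their direction and call, 852 lost the call and 320 gained one. The 6 that turned were Ect2 against pituitary (-0.112, control mice alone), Gh against hypothalamus (0.046, pools added) and, with the lowest-numbered cluster, Irx3 against hypothalamus (-0.094), Nlrp4b (0.082), Npc1 (-0.181) and Sez6l2 (0.083) against pituitary. The cause of these changes was not tested.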

Other observations

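Further imprinted genes, outside the Dlk1 to Dio3 domain, were lower in ovary. Of 33 measured imprinted genes, a set chosen after its values were seen and including 3 of that domain, 17 were lower than in both tissues (51.5%, beside 9.63% of all genes), 10 of them at least 4-fold, and 1 was higher. Peg3, a zinc-finger gene expressed from the paternal copy, was at 7.13, 8.26, 7.15 and 8.22 in ovary, against 11.82, 11.78, 11.70 and 11.91 in hypothalamus and 11.74, 11.55, 10.93 and 11.43 in pituitary. All 4 ovaries lay below every other array, and in both treatments the mouse of low ovulation had the higher ovarian signal, with 1 mouse in each class and no test. Usp29, its neighbour, was lower by more against hypothalamus (-6.20) than against pituitary (-3.99), while Zim1, of the same domain, differed by -2.81 and -3.67. Nnat, a membrane proteolipid of developing brain, differed by -3.60 and -4.20, and Zdbf2 by -3.58 and -3.53.

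Other imprinted genes were lower by unequal amounts. Mest, a paternally expressed hydrolase-like gene, differed by -1.69 from hypothalamus and by -4.03 from pituitary. The calcitonin receptor Calcr (-4.01 and -0.59), the potassium channel Kcnk9 (-3.54 and -1.65) and Ndn (-2.73 and -0.89) were farther below hypothalamus, and Magel2 was lower than in hypothalamus (-2.11) but not called against pituitary (0.07). The higher gene was Igf2r, the receptor that clears insulin-like growth factor 2, which is expressed mainly from the maternal copy outside neurons. It was at 7.78, 8.43, 8.10 and 8.51 in ovary, against 6.77, 6.75, 6.85 and 7.15 in hypothalamus and 7.12, 6.88, 6.60 and 6.95 in pituitary.

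For 12 called microRNA genes RefSeq places another gene across them: 5 pairs were called in the same direction, 2 in opposite directions, and in 5 the spanning gene was not called. The opposite pairs were Mir204 with Trpm3 and Mir708 with Tenm4. Mir708 was lower in ovary by 1.10 and 1.60 on the log2 scale, whereas Tenm4 was higher, by 0.59 and 1.23. The ovary of the control mouse of high ovulation had 4.41 for Mir708, with the other ovaries at 2.53 to 2.89. The median promoter GC content was 58.4% in higher genes and 59.2% in lower genes, against 55.6% over all genes with a promoter.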
